A study of Homo sapiens with 10 samples.

Results

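Chromatin remodelers, which slide or evict nucleosomes with energy from ATP, and histone-modifying enzymes, which write, read and erase acetyl and methyl marks on histone tails, were compared between ST486 cells that carried a short hairpin RNA (shRNA) against STK38 and cells that carried a non-target control shRNA. The genes were those whose probe sets the platform annotation assigns to 1 gene with a symbol that begins with SMARC, HDAC, CHD and a digit, KDM, KMT, BRD and a digit, ARID, EZH, SUV39H or KAT, or that is EED, SUZ12, EP300 or CREBBP. This rule found 67 of the 8226 genes named on the array, with 99 probe sets, and the probe set with the highest mean over all arrays stood for each gene. The KAT prefix also took in KATNA1, the catalytic subunit of the microtubule-severing enzyme katanin, and KATNIP, a katanin-interacting protein; they match by name alone and are kept as a class of their own.

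ST486 is an established human Burkitt's lymphoma line. All 10 samples were ST486 cells 60 h after lentiviral transduction, 5 with the STK38 shRNA (the labels name 1 construct) and 5 with the non-target control shRNA, and 5 µg of total RNA of each was hybridised to an Affymetrix U95Av2 array. With a single hairpin, loss of STK38 and off-target activity of the hairpin cannot be told apart. The title of the series asks how the kinase STK38 bears on the activity of MYC, the transcription factor deregulated in Burkitt's lymphoma. The labels do not say that replicates came from separate cultures. The p-values therefore set a difference only against the spread among these arrays, which may be technical.

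At their brightest probe sets STK38 fell by 2.19 (log2; limma adjusted p = 5.65e-08) and MYC fell by 1.38 (adjusted p = 9.56e-06). The B cell genes CD74, MS4A1, CD79A, CD79B and CD22 were above the array background on all 10 arrays. PAX5 was above it on none. Of these B cell genes CD79A was the 1 called (higher, log2 difference 0.49, limma adjusted p = 6.89e-04). Of 21 T cell, monocyte, epithelial, fibroblast, endothelial and erythroid markers on the array, KRT8 was the 1 above background on all 10, and CD247 was the 1 called (lower; above background on 1 array); the part of these markers in the results was not tested. The mean of the T cell list was 1.62 to 1.74 on control arrays and 1.52 to 1.68 on STK38 shRNA arrays, under the array background of 2.36 to 2.66. STK38 shRNA replicate 4 stood apart: its mean correlation with its own group was 0.982 where the others had 0.992 to 0.993, and its 75th percentile was 3.54 where the other 9 arrays had 3.91 to 4.02. On that array 33 of the 58 chromatin genes tested had the lowest value of their group. The same count was not made over all genes, so it does not set these genes apart.

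ATP-dependent remodelers fall into families by their motor: SWI/SNF (SMARCA4 or SMARCA2), ISWI (SMARCA5 or SMARCA1) and CHD. Histone acetyltransferases such as EP300 and CREBBP open chromatin at enhancers, deacetylases reverse this inside corepressor complexes, and bromodomain proteins bind the acetylated tails. Polycomb repressive complex 2 (PRC2) methylates histone H3 to silence genes and its catalytic subunit EZH2 is abundant in germinal centre B cells, the normal counterpart of Burkitt's lymphoma.

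Most of these genes did not pass the test. Of the 67 genes, 58 passed the filter on low values; among them 12 rose and 9 fell at an adjusted p under 0.05 in limma, together 36.2%, where 31% of all 5403 genes tested were called (15.2% higher and 15.8% lower). The share was thus near the background, and the median log2 difference was 0.031 beside 0.019 over all genes tested. The changes were small: the median size among the 21 called genes was 0.42 on the log2 scale, 18 of them were under 1.5-fold, and 2, ARID5B and SMARCE1, passed 2-fold (4.55% of all genes tested did). In these bulk samples fewer cells of a kind and less RNA per cell cannot be told apart. At 1.5-fold or more 3 of 58 were called, where the share over all genes was 14.3%. For 15 of the 58 genes, or 25.9%, no array of 1 group lay within the range of the other, against 23% of all genes tested. Without the katanin-related genes, 10 rose and 9 fell of 56. The counts include KATNIP and HDAC9, which passed the filter on low values only through the group where each was higher.

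The count of rises depended on single arrays. It went from 12 to 18 without STK38 shRNA replicate 4, to 7 without STK38 shRNA replicate 1, to 6 without non-target replicate 3 and to 7 without non-target replicate 4, while falls stayed between 7 and 10 whichever array was left out. Over all probe sets rises likewise varied more than falls in these fits (ranges in the last section), so this contrast is not particular to these genes. Without STK38 shRNA replicate 4 all 21 calls remained, and the added genes were BRD3, KDM5A, KDM6B, KMT2B, CHD8 and CHD9, all higher; of all genes tested 38.6% were then called, 21.7% higher and 16.9% lower. With arrays centred on their 75th percentile, 13 rose and 4 fell, so that 76.5% of calls were rises instead of 57.1%. Under it the falls of ARID5B, SMARCE1 and BRD2 were still called. Those of SMARCA4, EZH2, SUZ12, CREBBP, KDM1A and HDAC9 were not (limma adjusted p 0.0569 to 0.195). The 4 falls thus include a gene not called without this centring. That centring also moved the median log2 difference of all probe sets, from 0.018 to 0.068, so the shift is not particular to these genes.

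**Figure D1:**
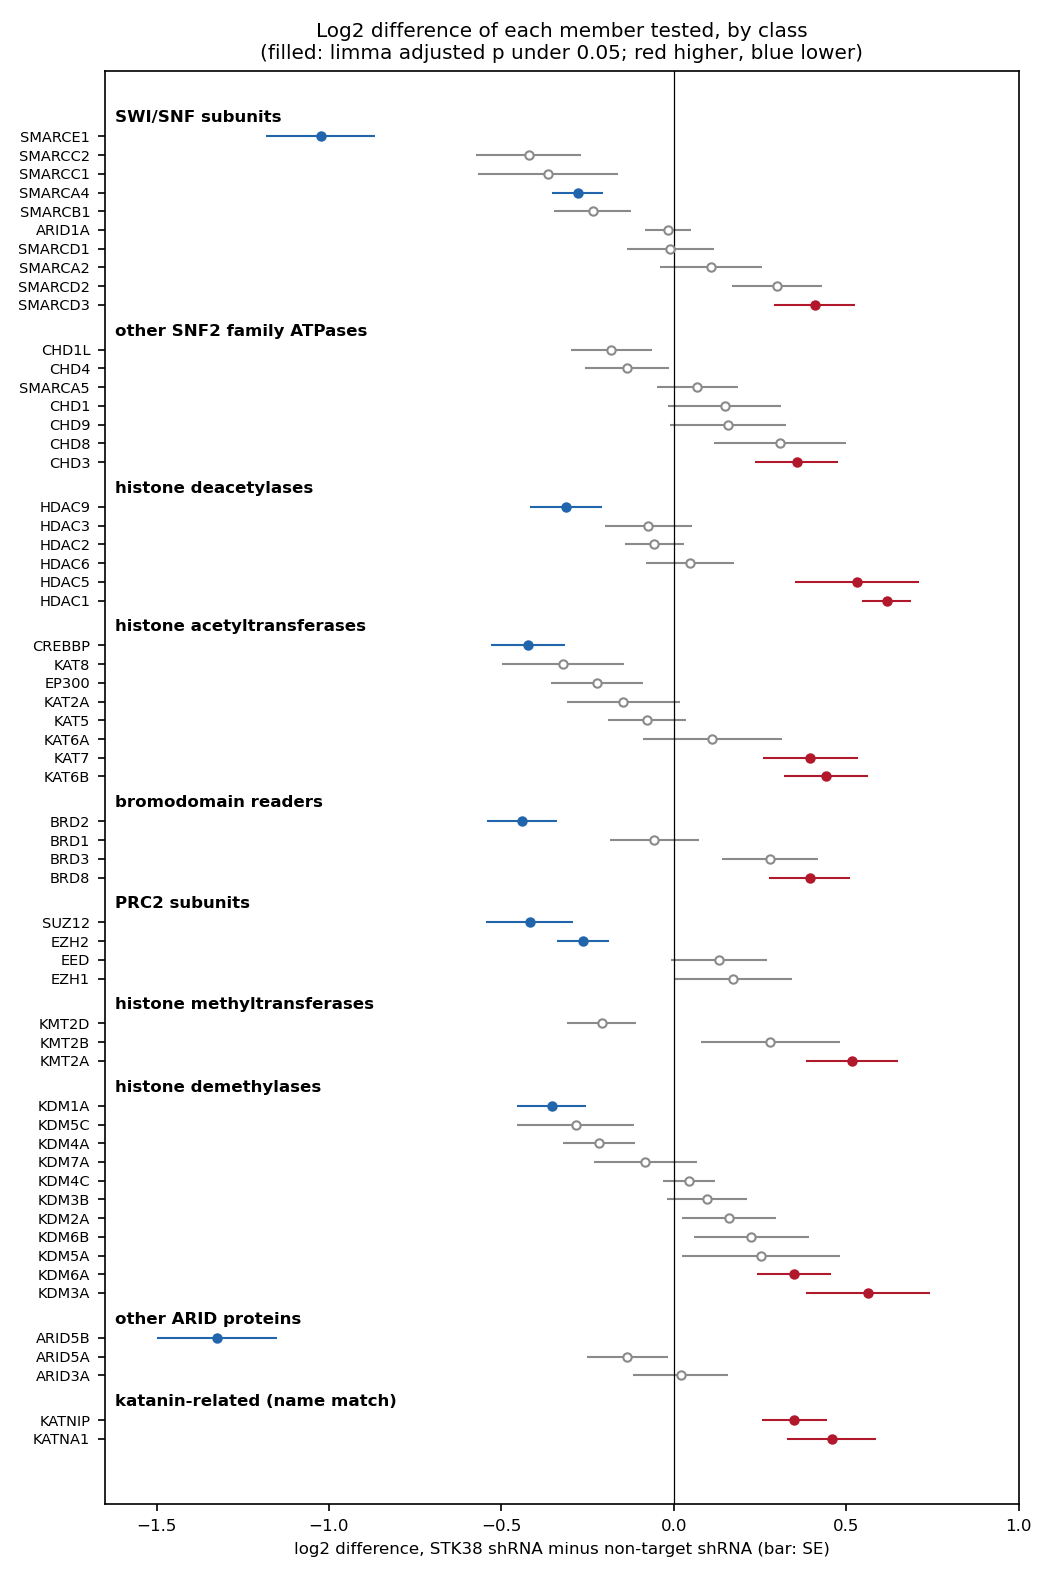
Log2 difference (STK38 shRNA minus non-target shRNA, x axis) of each of the 58 genes tested, with the standard error as a bar, by class. Filled symbols mark the 12 called higher (red) and 9 called lower (blue); ARID5B at -1.32 and SMARCE1 at -1.02 lie farthest from 0.

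**Figure D2:**
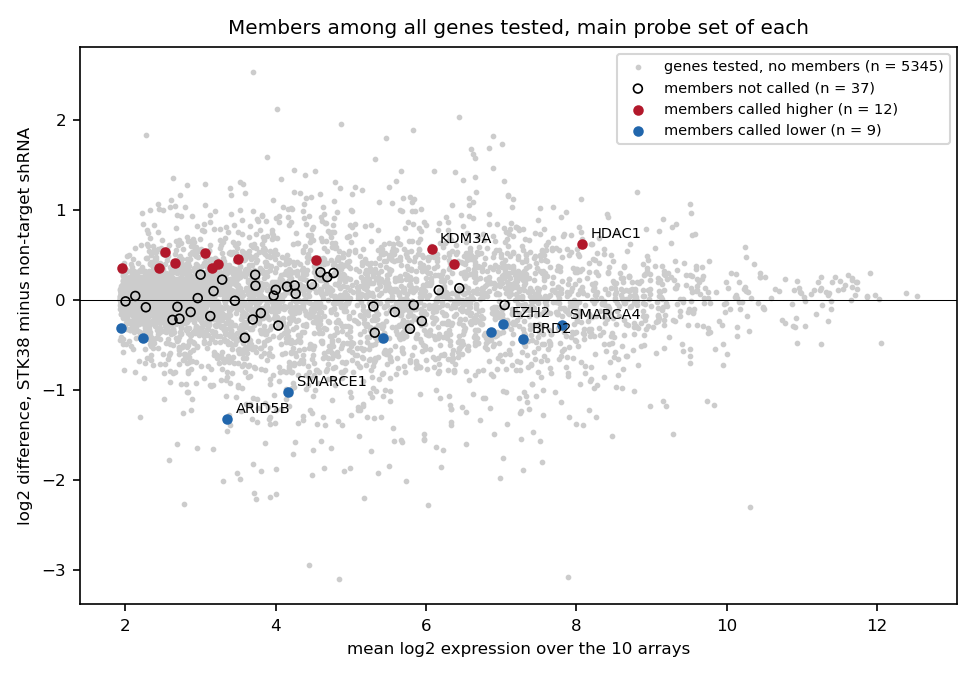
Log2 difference (y axis) against mean log2 expression over the 10 arrays (x axis) for the 5403 genes tested. Grey points are genes outside the set, red and blue points the chromatin genes called higher and lower, and open circles the 37 not called; the chromatin genes lie within the cloud of all genes.

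The start-site regions of 5 of the called genes are shown, chosen after the values were seen: SMARCE1 and HDAC1 as the largest fall and rise with a window that holds a searched motif, EZH2 and SUZ12 as partners in PRC2 that both fell, and KDM6A as the 1 called gene with an E-box. Each is the sense strand read 5′ to 3′ from RefSeq (build GRCh38.p14), the 250 bases before the annotated start, and for EZH2 also the first 9 transcribed bases. Capitals mark the searched motifs on either strand: the E-box CACGTG, to which MYC with MAX binds, the E2F motifs TTTCCCGC and TTTGGCGC, and the CCAAT box that the factor NF-Y binds.
SMARCE1, chr17:40647819-40648068, minus strand: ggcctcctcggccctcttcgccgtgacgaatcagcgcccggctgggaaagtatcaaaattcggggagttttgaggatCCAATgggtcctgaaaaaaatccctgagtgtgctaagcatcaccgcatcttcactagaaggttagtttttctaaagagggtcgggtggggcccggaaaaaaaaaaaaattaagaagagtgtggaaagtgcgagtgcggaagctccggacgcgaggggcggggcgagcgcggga
HDAC1, chr1:32291833-32292082, plus strand: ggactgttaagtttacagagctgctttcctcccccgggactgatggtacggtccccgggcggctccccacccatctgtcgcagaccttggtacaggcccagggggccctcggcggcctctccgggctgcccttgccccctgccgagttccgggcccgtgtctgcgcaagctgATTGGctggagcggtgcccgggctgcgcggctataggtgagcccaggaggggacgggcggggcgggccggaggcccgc
EZH2, chr7:148884283-148884541, minus strand: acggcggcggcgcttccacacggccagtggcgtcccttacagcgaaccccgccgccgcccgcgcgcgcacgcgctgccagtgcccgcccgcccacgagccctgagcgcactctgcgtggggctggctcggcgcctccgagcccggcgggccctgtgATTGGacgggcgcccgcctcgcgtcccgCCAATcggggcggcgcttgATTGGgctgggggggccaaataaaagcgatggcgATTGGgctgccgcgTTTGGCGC
SUZ12, chr17:31936757-31937006, plus strand: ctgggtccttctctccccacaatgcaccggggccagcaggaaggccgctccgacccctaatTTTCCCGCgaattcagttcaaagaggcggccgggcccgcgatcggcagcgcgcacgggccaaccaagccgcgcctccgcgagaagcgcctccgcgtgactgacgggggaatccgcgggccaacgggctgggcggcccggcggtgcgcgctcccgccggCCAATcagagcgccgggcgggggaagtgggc
KDM6A, chrX:44872938-44873187, plus strand: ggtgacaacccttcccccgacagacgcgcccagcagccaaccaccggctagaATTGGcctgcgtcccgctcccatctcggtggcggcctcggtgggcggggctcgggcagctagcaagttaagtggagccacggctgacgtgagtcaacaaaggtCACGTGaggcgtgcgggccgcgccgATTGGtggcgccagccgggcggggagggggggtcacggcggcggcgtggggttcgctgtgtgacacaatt

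Of the 58 genes tested, 52 had a window of 300 bases around a start site (250 before and 50 after). An E2F motif stood in the windows of 2 of them, EZH2 at bases 2 to 9 of the transcript and SUZ12 at positions -189 to -182 from the start, and both fell; the share was 4.78% of the 4494 genes tested that had a window. None of the 9 genes that fell held an E-box, 1 of 11 that rose did (KDM6A), and so did 4 of 32 that were not called (KAT5, KDM4C, KMT2D and CHD9), beside 13.1% of all genes tested. CCAAT was found in 4 of 9 that fell, 5 of 11 that rose and 10 of 32 not called, beside 45.5%. Of all 35116 windows given by RefSeq, 7.26% held an E-box, 2.27% an E2F motif and 34.6% CCAAT. A match describes letters in a window and says nothing of binding.

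SWI/SNF subunits went both ways. Of 10 tested, 2 fell (SMARCE1 and SMARCA4) and 1 rose (SMARCD3), with a median log2 difference of -0.13. SMARCE1, the HMG-box subunit also called BAF57, read 4.94, 4.14, 4.55, 4.76 and 5.00 on control arrays 1 to 5 and 3.81, 3.75, 3.54, 3.66 and 3.50 on STK38 shRNA arrays 1 to 5 (log2). Every array with the STK38 shRNA lay below every control, and the fall was 2.03-fold (log2 difference -1.02, SE 0.16, adjusted p = 1.79e-04). SMARCA4, or BRG1, the main ATPase of the complex, had 8.04, 7.95, 8.07, 7.82 and 7.87 in the controls and 7.68, 7.63, 7.71, 7.70 and 7.62 with the STK38 shRNA. These groups were also separate, over a narrow distance: the log2 difference was -0.28 (SE 0.073, adjusted p = 0.00929), and with arrays centred on the 75th percentile it was -0.23 with an adjusted p of 0.159.

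SMARCA2, or BRM, the alternative ATPase, had 6.42, 6.34, 5.98, 6.08 and 5.75 on the control arrays and 6.55, 6.00, 6.32, 5.92 and 6.32 on the others. Its groups overlapped, with a log2 difference of 0.11 (SE 0.15, adjusted p = 0.664). SMARCD3 (BAF60C), an accessory subunit, rose at both of its probe sets. The brighter read 2.46, 2.55, 2.39, 2.61 and 2.23 in controls and 2.71, 2.99, 2.72, 2.72 and 3.15 with the STK38 shRNA, a log2 difference of 0.41 (SE 0.12, adjusted p = 0.0153); 3 control arrays were above background there, so its size is uncertain. Among the rest, the scaffold gene SMARCC2 came closest to a call without passing, with -0.42 (adjusted p = 0.0503) and -0.31 (adjusted p = 0.0598) at its probe sets. The other scaffold, SMARCC1, had -0.36 and -0.10, SMARCB1, a core subunit, -0.24, and SMARCD2 0.30 at the brightest of 3. SMARCD1 had -0.0098, and ARID1A, above background on no array, was not called and is given no size.

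Of 7 remodeler ATPases outside SWI/SNF that were tested, 1 was called. It was CHD3, a motor of the nucleosome remodeling and deacetylase complex (NuRD). It read 3.02, 2.91, 2.99, 3.00 and 2.95 in the controls and 3.34, 3.52, 3.56, 3.05 and 3.17 with the STK38 shRNA, so that all of the latter were higher, replicate 4 only just (log2 difference 0.36, SE 0.12, adjusted p = 0.0355). That call was lost when any of STK38 shRNA replicates 1, 2 or 3 or any control array was left out (adjusted p 0.0554 to 0.0919). CHD4, the other NuRD motor, had -0.13, the ISWI motor SMARCA5 0.068, CHD1 0.15, CHD9 0.16, CHD8 0.31 and CHD1L -0.18. CHD2, CHD5 and SMARCA1 were above background on no array and were not tested.

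Deacetylases were led by HDAC1, the class I enzyme of the NuRD, SIN3 and CoREST complexes, which had the largest rise of all 58. Its brightest probe set read 7.91, 7.75, 7.79, 7.77 and 7.62 on control arrays and 8.40, 8.42, 8.43, 8.35 and 8.32 on STK38 shRNA arrays. The groups lay far apart relative to their spread, 7.77 ± 0.11 against 8.39 ± 0.047 (SD, n = 5 each), a 1.53-fold rise (log2 difference 0.62, SE 0.071, adjusted p = 1.22e-05). Its other probe set gave 0.53 (adjusted p = 5.21e-04). HDAC2, the close relative that sits in the same complexes, had 7.06, 7.16, 7.14, 7.13 and 6.87 and 7.06, 7.09, 6.99, 6.87 and 7.07. Those ranges overlapped (log2 difference -0.057, SE 0.086, adjusted p = 0.696).

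Of the other deacetylases, HDAC5, a class IIa enzyme, was called higher with 0.53 (adjusted p = 0.0370). It was above background on 1 control array and 4 STK38 shRNA arrays. Leaving out STK38 shRNA replicate 1, 2, 3 or 5 or control replicate 2, 3 or 4 lost the call (adjusted p 0.0550 to 0.100). Its groups overlapped. STK38 shRNA replicate 4 read 2.10, inside the control range of 1.94 to 2.51, and the other 4 read 2.69 to 3.27. Without that array the log2 difference was 0.70 (limma adjusted p = 2.92e-04). HDAC9, also class IIa, was called lower (adjusted p = 0.0347) but above background on no array, so no size is given; without STK38 shRNA replicate 1 or control replicate 1, 3 or 4 the adjusted p was 0.0772 to 0.0898. Its STK38 shRNA mean of 1.79 was under the filter minimum of 1.93, so it passed the filter only through the controls. HDAC3, the NCOR enzyme, had -0.074 and HDAC6, which deacetylates tubulin, 0.047. HDAC4 was above background on no array and was not tested.

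Among acetyltransferases 2 of 8 tested rose and 1 fell. KAT6B (MORF), which acetylates histone H3, read 4.04, 4.36, 4.53, 4.35 and 4.32 in the controls and 4.70, 4.79, 4.71, 4.98 and 4.62 with the STK38 shRNA. No control reached the lowest STK38 shRNA value, and the rise was 1.36-fold (log2 difference 0.44, SE 0.12, adjusted p = 0.0120). KAT7 (HBO1), an acetyltransferase tied to replication origins, rose by 0.40 (adjusted p = 0.0421), a call that held without STK38 shRNA replicate 4 or control replicate 2 and was lost without any other single array (adjusted p 0.0564 to 0.110). CREBBP, the coactivator CBP, was called lower, with 2.63, 2.57, 2.25, 2.31 and 2.48 against 1.74, 2.03, 1.97, 2.24 and 2.14 (adjusted p = 0.00770). The groups did not overlap, but 2 control arrays and 0 STK38 shRNA arrays were above background, so no fold is given; centred on the 75th percentile, its adjusted p was 0.0817. EP300 (p300), its paralogue, had 2.89, 2.49, 2.53, 2.71 and 3.07 in controls and 2.59, 2.71, 2.58, 2.17 and 2.52 with the STK38 shRNA. The ranges overlapped, and the probe sets of EP300 pointed opposite ways, -0.22 (adjusted p = 0.252) and 0.18 (adjusted p = 0.165). KAT8 had -0.32, KAT2A (GCN5) -0.15, KAT5 (TIP60) -0.077 and KAT6A 0.11, none called; KAT2B was above background on no array and was not tested.

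BRD2, a BET protein that binds acetylated histones, fell. It read 7.46, 7.55, 7.56, 7.56 and 7.45 on control arrays and 6.87, 7.14, 7.43, 6.93 and 7.01 on STK38 shRNA arrays. STK38 shRNA replicate 3 came close to the controls and the other 4 lay well below (log2 difference -0.44, SE 0.10, adjusted p = 0.00404). Its other probe sets had -0.52 (adjusted p = 0.0312) and -0.29 (adjusted p = 0.0927). BRD3, another BET protein, had 0.28 at the brightest probe set (adjusted p = 0.156), 0.43 at the next (adjusted p = 0.0206) and 0.16 at the third. BRD8, a subunit of the TIP60 acetyltransferase complex, rose by 0.39 at its brightest probe set (adjusted p = 0.0189), with 0.15 and 0.032 at the others tested; without STK38 shRNA replicate 1 or 5 or control replicate 3 that adjusted p was 0.0532 to 0.0562. BRD1, a scaffold of KAT6 and KAT7 complexes, had -0.056.

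In PRC2 the catalytic subunit EZH2 and SUZ12, which the complex needs for stability, fell, while EED and EZH1 were not called. EZH2 read 7.17, 7.20, 7.20, 7.07 and 7.14 in controls and 6.84, 6.92, 6.89, 6.96 and 6.86 with the STK38 shRNA. Both groups were tight and did not overlap, 7.16 ± 0.055 against 6.89 ± 0.048 (SD, n = 5 each), yet the fall was small at 1.20-fold (log2 difference -0.26, SE 0.075, adjusted p = 0.0154); centred on the 75th percentile it was -0.21 with an adjusted p of 0.195. SUZ12 had 5.60, 5.79, 5.59, 5.87 and 5.34 and 5.41, 5.24, 4.93, 5.30 and 5.22. STK38 shRNA replicate 1 overlapped the lowest control (log2 difference -0.42, SE 0.13, adjusted p = 0.0203); the adjusted p was 0.0532 to 0.0640 without STK38 shRNA replicate 3 or control replicate 2 or 4, and 0.0569 with arrays centred on the 75th percentile. EED, which reads the methyl mark that PRC2 writes, had 6.45, 6.38, 6.39, 6.56 and 6.10 and 6.67, 6.66, 6.25, 6.12 and 6.83. These values were mixed (log2 difference 0.13, SE 0.14, adjusted p = 0.563), and EZH1, the alternative catalytic subunit, had 0.17 (adjusted p = 0.523).

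KMT2A (MLL1), a methyltransferase that marks active promoters, was the 1 called of 3 methyltransferases tested. It read 2.92, 2.54, 2.95, 2.89 and 2.73 in controls and 3.58, 3.14, 3.58, 3.15 and 3.16 with the STK38 shRNA. Replicates 1 and 3 of the latter stood highest and the remaining 3 lay just above the controls (log2 difference 0.52, SE 0.13, adjusted p = 0.00832). Control replicate 2, at 2.538, was barely above its array background of 2.534, so the size is uncertain. KMT2B had 0.28 and KMT2D, a frequent mutation target in B cell lymphoma, -0.21; its other probe sets were above background on no array.

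Demethylases were called in both directions, 2 higher and 1 lower of 11 tested. KDM1A (LSD1), the flavin-dependent demethylase of CoREST, read 6.78, 7.19, 7.26, 6.94 and 7.01 on the controls and 6.75, 6.68, 6.60, 6.65 and 6.74 on the STK38 shRNA arrays. The groups touched without overlap, control replicate 1 being the lowest of its group (log2 difference -0.35, SE 0.1, adjusted p = 0.0138); centred on the 75th percentile the adjusted p was 0.0645. KDM3A, which removes methyl groups from lysine 9 of histone H3, rose by 0.56 (adjusted p = 0.0274). STK38 shRNA replicate 4 lay among the controls there, at 5.66 where the other 4 had 6.21 to 6.73, and without it the difference was 0.74 (adjusted p = 1.75e-04); without STK38 shRNA replicate 1, 2 or 5 or control replicate 3 or 4 the adjusted p was 0.0631 to 0.0790. KDM6A (UTX), which opposes PRC2, was above background on 0 control arrays and 4 STK38 shRNA arrays, with 2.33, 2.42, 2.00, 2.07 and 2.52 and 2.59, 2.62, 2.67, 2.53 and 2.67. It was at least 1.09-fold higher (adjusted p = 0.0229), and the adjusted p was 0.0726 and 0.0732 without control replicate 3 or 4. KDM4A had separate groups with a small difference of -0.22 that was not called (adjusted p = 0.139). KDM5C had -0.28, KDM3B 0.098, KDM2A 0.16, KDM6B 0.22 and KDM5A 0.25. KDM7A, above background on no control array, and KDM4C, above it on no array, were not called and are given no size. KDM4B, KDM5B and KDM5D did not pass the filter on low values.

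ARID5B, a DNA-binding protein that recruits the demethylase PHF2, had the largest change of all 58 genes. It read 4.12, 4.22, 3.83, 4.27 and 3.65 on control arrays and 3.00, 3.00, 2.64, 2.15 and 2.69 on STK38 shRNA arrays. All 5 of the latter lay below all controls, and replicate 4, the lowest, was not above background. The fall was 2.50-fold (log2 difference -1.32, SE 0.17, adjusted p = 4.36e-05), and without replicate 4 the log2 difference was -1.19. ARID5A had -0.13 and ARID3A, a B cell transcription factor, 0.020, neither called; ARID4B, a SIN3 subunit, was above background on no array and was not tested. Of the katanin-related genes, KATNA1 rose by 0.46 (adjusted p = 0.0146); its dimmer probe set, above background on no array, was not called (adjusted p = 0.331). KATNIP was called higher as well, with 1.86, 1.76, 1.82, 1.76 and 1.69 against 2.43, 2.09, 2.25, 1.90 and 1.97 (adjusted p = 0.0107). It was above background on no array of the controls or the STK38 shRNA group, so no size is given. Its control mean of 1.78 was under the filter minimum of 1.93, so it passed the filter only through the STK38 shRNA arrays.

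**Figure D3:**
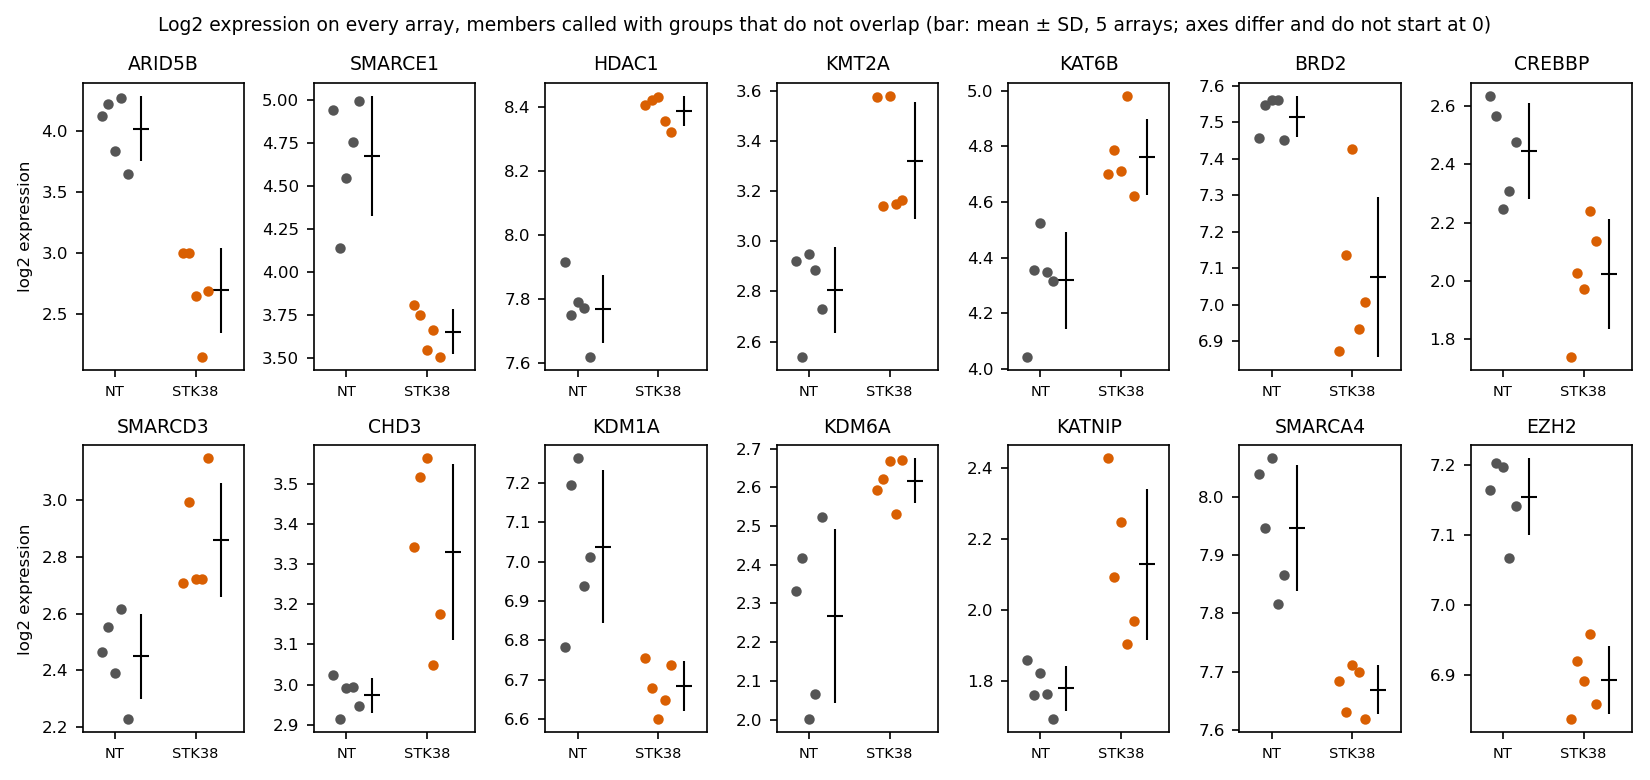
Log2 expression (y axis, a separate range for each gene) on each of the 5 non-target shRNA arrays (NT, grey) and 5 STK38 shRNA arrays (STK38, orange) for the 14 called genes whose groups did not overlap, with mean ± SD at the side. HDAC1, EZH2 and SMARCA4 show tight groups, while BRD2 and KMT2A spread widely among the STK38 shRNA arrays.

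Close relatives were compared within each array, over 10 pairs compiled after the values were seen. The HDAC1 minus HDAC2 difference went from 0.70 ± 0.11 in the controls to 1.37 ± 0.090 with the STK38 shRNA (log2, SD, n = 5 each), a shift of 0.67 with no overlap (two-sided exact permutation p = 0.00794, the smallest that 5 against 5 arrays allow; Benjamini-Hochberg adjusted p = 0.0397 over the 10 pairs). BRD2 minus BRD3 went from 3.93 ± 0.10 to 3.21 ± 0.25, a shift of -0.72, also with no overlap (exact p = 0.00794, adjusted p = 0.0397). Since the pairs were chosen with these values known, both p-values describe these arrays and are no independent support. The other 8 pairs did not pass: the shift was -0.43 for EZH2 minus EZH1 (exact permutation p = 0.0952, adjusted p = 0.190), -0.39 for SMARCA4 minus SMARCA2 (exact p = 0.0714, adjusted p = 0.179), 0.46 for KDM3A minus KDM3B (exact p = 0.0556, adjusted p = 0.179) and between 0.056 and 0.33 for the remaining 5. For these pairs a call in 1 relative and none in the other does not show that they differ.

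**Figure D4:**
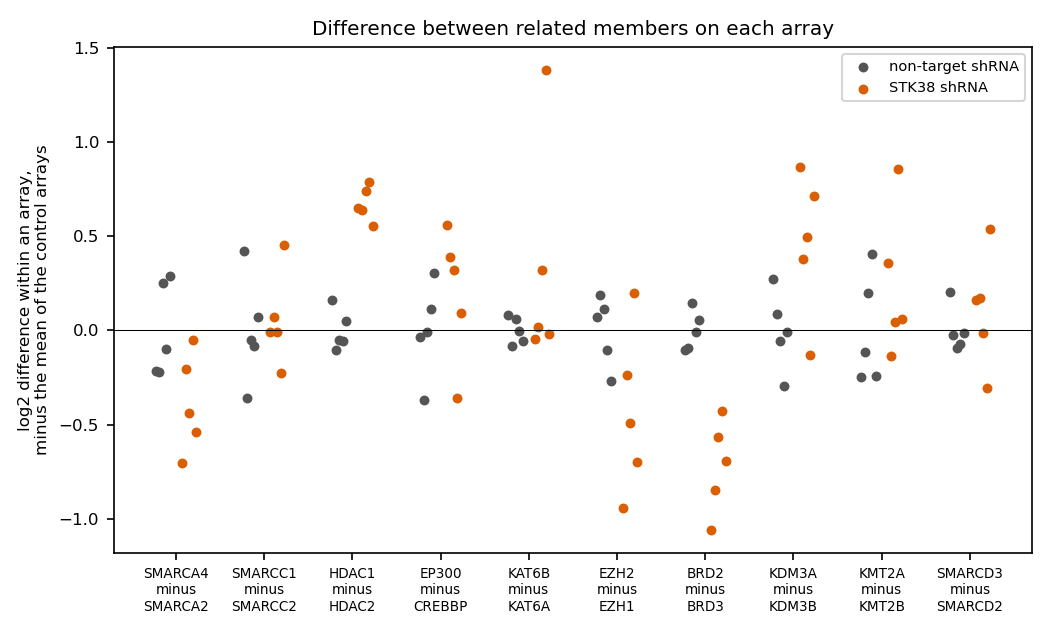
Log2 difference between related genes on the same array (y axis, set to 0 at the mean of the control arrays) for 10 pairs; grey points are the 5 non-target shRNA arrays and orange points the 5 STK38 shRNA arrays. The groups separate for HDAC1 minus HDAC2 and BRD2 minus BRD3 and overlap for the other 8 pairs.

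Over all 7535 probe sets tested 29.9% were called. For 21 of the genes several probe sets were tested. No gene was called in opposite directions, and HDAC1 and SMARCD3 were called the same way by all of their probe sets. Calls differed between the probe sets of BRD2, BRD3, BRD8 and KATNA1. Signs differed for 8 genes, ARID1A, EP300, KAT6A, KAT8, KDM4C, KDM5A, KMT2D and SMARCD2, none of which was called at any probe set; for ARID1A, KAT6A, KDM4C, KDM5A and KMT2D, a probe set of differing sign was not above background on any array of at least 1 group.

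**Figure D5:**
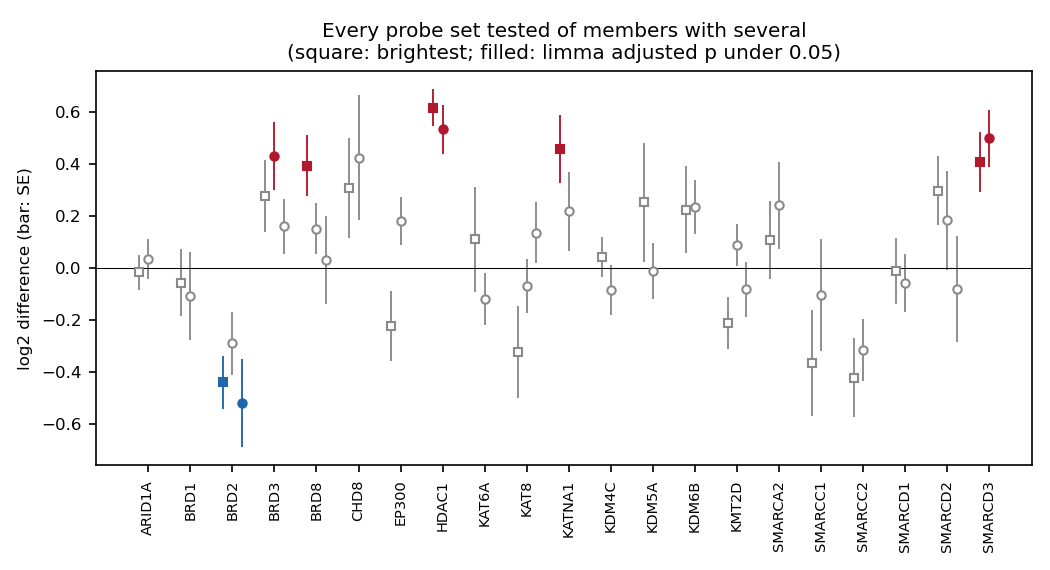
Log2 difference with its standard error (y axis) for every probe set tested of the 21 genes that had several. Squares are the brightest probe set of a gene and circles the others, filled where called; HDAC1 (0.62 and 0.53) and SMARCD3 (0.41 and 0.50) are called at each of theirs.

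Other chromatin genes, some of them from the same complexes, were taken in lists that hold none of the genes above. Over 12 lists, 100 of 113 genes on the array were tested, of which 11 rose and 16 fell, beside the 31% called of all genes. The median was 0.040. Of the 100, 5 were called at 2-fold or more, a share near the 4.55% of all genes tested. Deacetylase corepressor genes had 0 rises and 2 falls of 8: SAP30, a SIN3 subunit, fell 2.60-fold (log2 difference -1.38, adjusted p = 4.18e-06) and ING2, which brings SIN3 to methylated histone H3, 1.54-fold. The NuRD list had 1 rise of 4, RBBP4, a histone-binding subunit shared with PRC2 (1.27-fold, adjusted p = 0.00539). Among SWI/SNF partners SS18 rose 1.80-fold, ACTL6A, an actin-like subunit, fell 1.54-fold and BCL11A 1.41-fold, of 8 tested.

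The ISWI, INO80 and SRCAP list, which also takes in HLTF, ATRX and ERCC6 from outside these complexes, had 1 rise and 4 falls of 12. BAZ1A, an ISWI partner, fell 2.32-fold (adjusted p = 0.00446), with arrays that spread widely, HLTF 1.53-fold and POLE3 1.30-fold, while BAZ2B rose 1.28-fold. In the acetyltransferase list 2 rose and 3 fell of 16: TADA3, an adaptor of KAT2A, had a log2 difference of -1.22 (adjusted p = 2.64e-05) with 2 STK38 shRNA arrays above background, HAT1 fell 1.35-fold, MSL1 was at least 1.12-fold lower and TAF10 rose 1.30-fold. The calls of MSL1 and TAF10 were lost without non-target replicate 4, that of MSL1 also without non-target replicate 1 (adjusted p 0.0585 to 0.0644) and that of TAF10 also without non-target replicate 2 (adjusted p 0.0522 to 0.0534). Polycomb partners had 3 rises and 0 falls of 12. PCGF3, a subunit of a Polycomb repressive complex 1 variant, rose from 3.39 ± 0.22 to 4.74 ± 0.049 (log2, SD, n = 5 each), 2.54-fold (adjusted p = 1.66e-06), and CBX6 1.35-fold. PHF1, a partner of PRC2, was called higher (1.41-fold, adjusted p = 0.0396) with STK38 shRNA replicate 4, at 3.55, below all controls, and its call was lost when any array other than that replicate was left out (adjusted p 0.0501 to 0.107).

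Heterochromatin genes CBX5 (HP1 alpha) and CBX3 (HP1 gamma) fell 1.43-fold and 1.21-fold and the arginine methyltransferase gene PRMT2 rose 1.34-fold, of 14 in that list. JMJD6 fell 2.57-fold (adjusted p = 7.35e-06), the 1 call of 5 tested in the list of other demethylases, a grouping made without a measure of enzyme activity. DNMT1, the maintenance DNA methyltransferase, fell 1.47-fold (adjusted p = 9.44e-04) and MBD1, a methyl-CpG binder, above background on 3 control arrays, rose 1.32-fold, of 5. Among other bromodomain genes SP100, a nuclear body protein, rose 1.55-fold and TRIM24 fell 1.27-fold, of 9; the TRIM24 call was lost without STK38 shRNA replicate 1 or non-target replicate 2 or 3 (adjusted p 0.0514 to 0.0614). In the COMPASS list, partners of the KMT2 enzymes, limma called 0 of 7, with 2 at an unadjusted p under 0.05. Over all 12 lists 22 of the 27 calls held whichever array was left out; the 5 that did not were MSL1, TAF10, TRIM24, PHF1 and TAF12, the last outside the 4 named of its list and lost in 6 of the 10 fits.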

How the data were processed

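Total RNA of 10 ST486 samples was measured on 1-colour Affymetrix U95Av2 arrays. The deposited table holds log2 expression values for 12625 probe sets, the scale being read from the values, and the submitters' processing notes list the tools GCRMA and affy without versions. GCRMA draws dim probe sets towards a floor, which shrinks their differences. Samples were grouped from the labels. After 67 control probe sets were removed, probe sets with a mean under the 40th percentile (1.93) were left out, and the 7535 others were compared in limma 3.58.1 (R 4.3.3; lmFit, eBayes with trend; 8 residual degrees of freedom). The Benjamini-Hochberg adjustment ran over all of them, at a threshold of 0.05. SE is that of the fit, and a fold is the linear ratio of a log2 difference. Plots were drawn with matplotlib 3.10.9.

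Background on each array was the 90th percentile of 23 mouse, yeast and reverse-strand control probe sets. A gene above it on no array of 1 group is given as "at least N-fold" against the higher of background and signal. Symbols came from the platform annotation, updated through the RefSeq table of GRCh38.p14; 2 probe sets that name ARID4B together with RBM34 were left out. Every called member is named; array values are given for up to 16 called members with the largest differences among those whose groups do not overlap (14 qualified), and, whatever their values, for EZH2, EED, SUZ12, EP300, CREBBP, SMARCA4, SMARCA2, HDAC1, HDAC2, KMT2A and KDM1A. Of each other list up to 4 called genes are named. The members, classes and other lists, and the alternatives, were chosen with earlier results of these data known. Same-numbered arrays of the groups did not deviate together (correlations -0.21 to 0.19), so the numbers were not taken as pairs. Alternatives covered the filter, the scaling, the variance model, the thresholds, the choice of probe set and each array left out in turn.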

Additional observations from a re-analysis of the deposited data

Results flagged for a closer look

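Each of the 58 genes tested was searched for an array far from the other 4 of its group, that is, with a gap to the nearest array above the 95% critical value of Dixon's ratio. Chance gives about 1 in 20 such groups, and 5 of 116 were found, 3 of them on STK38 shRNA replicate 4. KDM5A, a demethylase of active promoters, read 3.88 on that array where the other 4 had 4.87 to 5.14, SMARCC1, a SWI/SNF scaffold, 4.42 beside 5.17 to 5.43, and KAT2A, an acetyltransferase, 3.07 beside 3.76 to 4.02. SMARCD1 read 3.85 on STK38 shRNA replicate 3 beside 3.25 to 3.41, and KAT6A 3.59 on non-target replicate 1 beside 3.98 to 4.09. None of these 5 genes was called with all arrays. Without STK38 shRNA replicate 4, KDM5A had a log2 difference of 0.49 and passed the test (limma adjusted p = 0.0140).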

How the results depend on the processing

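No called gene changed direction under any alternative run, and 3 of the 21, ARID5B, SMARCE1 and HDAC1, kept their calls under all of them. One alternative was a cut-off of 1.5-fold, which the other 18, all under that size, could not pass. KMT2A and BRD2 lost their calls under that cut-off alone. Of the 21 calls, 13 held whichever single array was left out. Single-gene values under the alternatives were tallied for the 21 called genes and for EED, EP300, HDAC2 and SMARCA2. Calls gained by other genes are not in this tally. Under alternatives other than leaving out an array, 266 values stayed on their side of the threshold and 53 lost the call. With an array left out these were 210 and 40. The 53 include losses under the stricter thresholds of 0.01 and 1.5-fold, which follow from the threshold and not from the processing. With arrays centred on the 75th percentile, 4 members fell, where the median of all probe sets was 0.068. Array weights gave 19 rises among members and 1619 among all probe sets (1064 without weights). A threshold of 0.01 left 2 rises and 5 falls among members and 650 rises among all probe sets. Asking for at least 1.5-fold left 1 rise and 2 falls among members, and 392 rises and 635 falls among all probe sets (1192 falls without it). Leaving out each array in turn gave 6 to 18 rises and 7 to 10 falls among members, 871 to 1548 rises and 1055 to 1269 falls among all probe sets, and a member median of -0.018 to 0.050. With the replicate number as a block, 10 members rose and 8 fell, and 989 and 1170 of all probe sets; CHD3, KAT7 and HDAC9 lost their calls. The median of SWI/SNF subunits was -0.24 where only genes above background on all 5 arrays of a group were kept, and that of the katanin-related genes 0.28 with the probe set of largest spread. BRD8 lost its call with gene means (0.19) and with that probe set (0.032). HDAC5, KAT7 and HDAC9 lost theirs with no filter on low values, CHD3, KAT7 and HDAC5 with median centring, and SUZ12 and HDAC5 with quantile normalization. Scaling moved the median of all probe sets from 0.018 to between 0.0075 and 0.068. Against a background without the human reverse-strand controls, 6 instead of 13 members were above it on no array. The cause of these shifts was not tested. The 5 arrays of each group and a signal near background limit the precision for dim genes.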
